A study of Mus musculus with 4 samples.

Results

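Nucleolar ribosome biogenesis genes are the genes of ribosomal RNA synthesis by RNA polymerase I and of the proteins that fold, modify, cut and package that RNA into ribosomal subunits. A list of 42 of them was given by name, chosen by function with earlier results of these data known, and all 42 were found among the 21146 genes of the table. The table held RNA sequencing values of tumour-infiltrating T cells from C57BL/6 mice, taken 21 days after tumour inoculation, in 2 libraries of wild-type mice and 2 libraries of mice labelled HPK1-/-, a name for a knockout of the kinase that Map4k1 encodes. Neither the tumour, the sorting gate nor the knockout allele was named in the labels, and nothing says that each library is a mouse of its own, so the p-values cover the spread among the libraries alone, part or all of which can be technical. Values were FPKM, fragments per kilobase of transcript scaled to sequencing depth, as the authors deposited them.

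Ribosome assembly starts in the nucleolus, where RNA polymerase I copies the ribosomal DNA repeats into a long precursor RNA. Small nucleolar RNAs (snoRNAs) bound to proteins guide methylation and pseudouridine formation on that precursor, the small subunit processome and later factors cut it, and separate sets of factors mature the small (40S) and large (60S) subunits. The pathway is known to be raised in T cells that grow and divide after antigen recognition, and the transcription factor MYC is a known activator of many of its genes.

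Most nucleolar genes were higher in the knockout libraries, by modest amounts. Of the 42 genes, 24 rose and 1 fell at a limma adjusted p below 0.05, and 17 did not pass. Of all 11947 tested genes 15.4% were called higher, 13.0% lower and 28.4% in either direction, against 57.1% of the nucleolar genes called higher. The median log2 fold change of the 42 genes, knockout minus wild type on the log2(FPKM + 1) scale, was 0.36 (middle 50% from 0.17 to 0.62), against 0.04 over all tested genes, and 39 of the 42 were above 0 (53.8% of all tested genes). Both knockout libraries lay above both wild-type libraries for 34 of the 42 genes (81.0%), against 38.6% of all tested genes, and below them for 3, Polr1c, Gar1 and Nop10, against 31.4%. The genes that rose had mean FPKM between 1.25 and 2.01 times the wild-type mean, with Pes1 at the low end and Dkc1 at the high end. In bulk samples, fewer cells of a type and less RNA per cell cannot be told apart.

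The values of the list as a whole separated the genotypes as well. Summed over the 42 genes, FPKM was 4521 and 4655 in wild type and 6054 and 6014 in the knockout, 1.32 times higher on average. Npm1 and Ncl made up a large part of this sum. Without them it was 2913 and 2922 against 3677 and 3673, 1.26 times higher. Total FPKM moved the other way, from 975047 and 975107 to 871584 and 878585. With libraries scaled to equal totals, 33 nucleolar genes rose and 1 fell, and the split over all tested genes went from 1839 higher and 1551 lower to 3475 higher and 1118 lower. Median-of-ratios scaling moved that split the other way, to 1527 higher and 1726 lower, with 22 nucleolar genes higher and 1 lower. Scaling to equal totals raised the median of all tested genes to 0.18 and that of the nucleolar genes to 0.51, so the distance between them was 0.34, close to the 0.32 of the unscaled values.

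**Figure D1:**
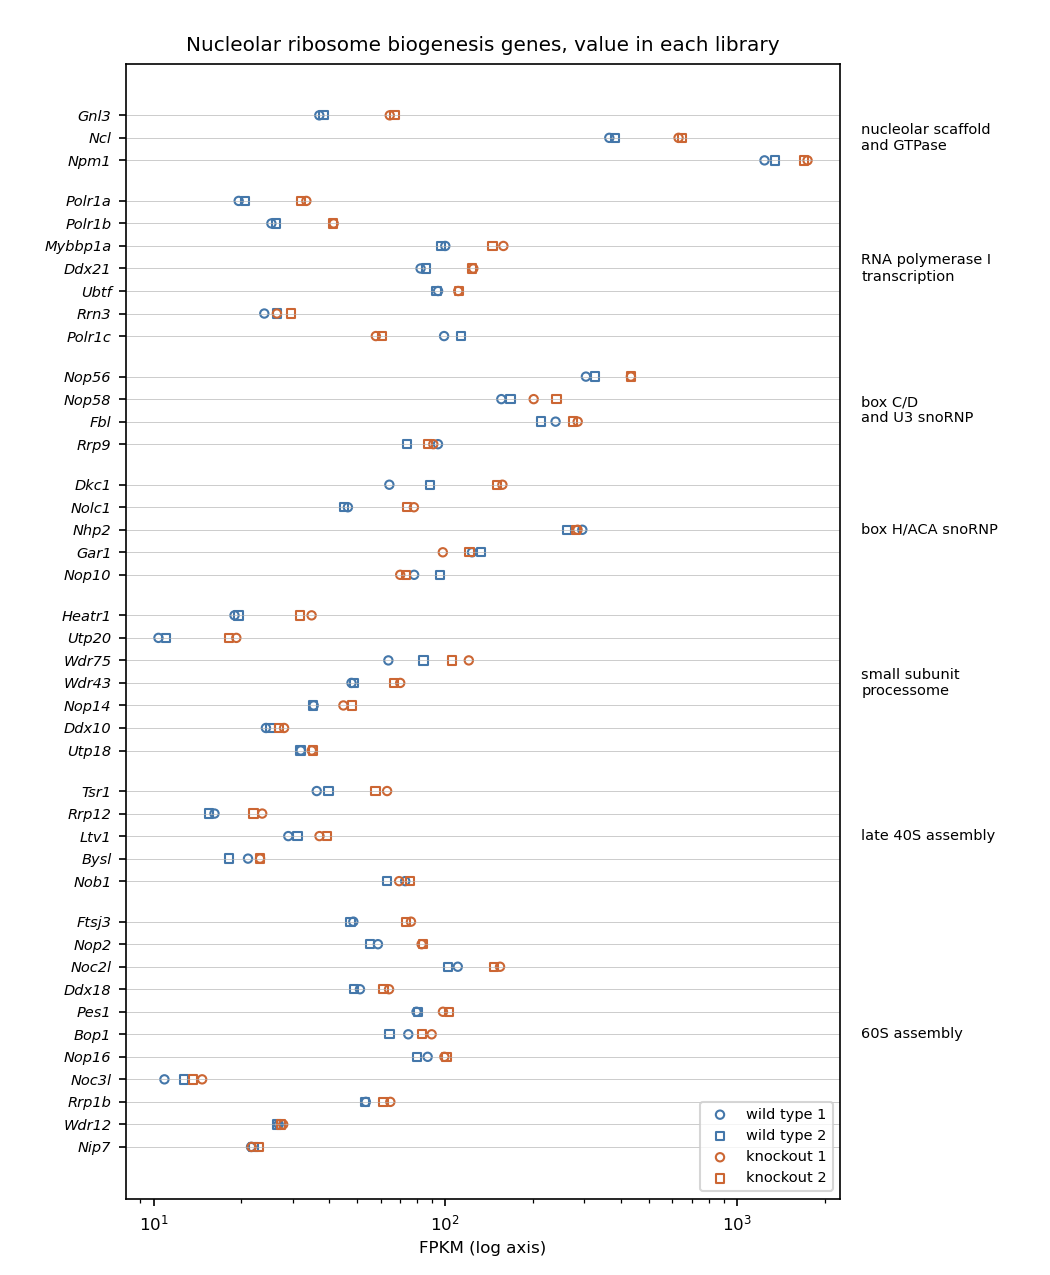
FPKM (log axis) of each of the 42 genes in the 2 wild-type (blue) and 2 knockout (orange) libraries, grouped by role; circles are replicate 1 and squares replicate 2. Orange symbols lie to the right of blue ones for 34 genes, to the left for 3, and mix with them for 5.

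Leaving out a knockout library cost more calls than leaving out a wild-type library. Without knockout replicate 1 only 2 nucleolar genes were called higher, Ncl and Gnl3, where 1.58% of all tested genes were. Leaving out knockout replicate 2 gave 11 (background 3.16%), namely Ncl, Gnl3, Polr1a, Polr1b, Mybbp1a, Dkc1, Nolc1, Heatr1, Utp20, Tsr1 and Ftsj3. Leaving out wild-type replicate 1 gave 21 (11.6%), and leaving out wild-type replicate 2 gave 22 (14.2%). Without wild-type replicate 1 the genes Npm1, Nop58, Wdr75, Nop14, Ltv1 and Pes1 lost their call and Fbl, Bop1 and Nop16 gained one, and without wild-type replicate 2 Nop58 and Ddx18 lost theirs. All 24 genes that rose stayed above 0 under all 17 other settings that were run, but most of these could not reverse a sign. In all 24 both knockout values lay above both wild-type values, so another pseudocount or leaving out a library could not. Filters, thresholds, limma options and the replicate block do not change the fold change. Only the scalings, quantile normalization and removal of a trend with transcript length and GC content could have reversed it. The calls with the highest adjusted p were lost most often, that of Ltv1 under 9 of the 17 settings, Nop58 under 8, Pes1 and Ddx18 under 7 each and Wdr75 under 6.

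The targeted gene and the markers of other cells were checked beside these results. Map4k1 (ENSMUSG00000037337) was at 48.9 and 41.1 FPKM in wild-type cells against 20.6 and 26.5 FPKM in knockout cells, lower but not absent (log2 fold change -0.91, SE 0.15, limma adjusted p = 0.0134), and it did not pass without knockout replicate 1 (adjusted p = 0.0634). T cell markers were all present, with summed FPKM of 2040 to 2110 in wild type and 2233 to 2301 in the knockout. Of the 10, 3 rose and 1 fell, where 15.4% of all tested genes were called higher and 13.0% lower. Of 46 listed markers of B cells, myeloid cells, erythroid cells, stroma, epithelium and melanocytes, no list summed to more than 16.7 FPKM in any library. The erythroid list summed to 11.6 to 13.1 FPKM in wild type and 4.31 to 5.31 FPKM in the knockout. The epithelial list summed to 11.5 to 12.8 and 2.98 to 3.02 FPKM. All 3 tested erythroid and 2 tested epithelial genes were called lower, where 13.0% of all tested genes were. Dendritic cell, fibroblast and endothelial sums were also lower in the knockout, B cell sums were higher, and the other of these lists overlapped. Of the 8 macrophage and monocyte markers, Lyz2, Adgre1, Csf1r, C1qb and C1qc were under 0.1 FPKM throughout and C1qa had no row. Itgam and Cd68 were not under 0.1 FPKM throughout, and 1 gene of this list reached the filter. The list summed to 4.16 to 4.25 FPKM in wild type and 2.70 to 4.30 FPKM in the knockout. All 10 genes of a proliferation list rose (15.4% of all tested genes), from summed FPKM of 1131 to 1145 to sums of 1866 to 1912. Myc itself was at 124.8 and 114 against 145 and 141 FPKM and did not pass (log2 fold change 0.26, limma adjusted p = 0.0642). Mitochondrial transcripts took 2.94% to 3.61% of FPKM in the 4 libraries. What part proliferation has in the nucleolar values was not tested.

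In the group of nucleolar scaffold and GTP-binding proteins, all 3 genes rose, where 15.4% of all tested genes were called higher. Ncl (ENSMUSG00000026234, GRCm38 chromosome 1, 86344719 to 86359400, minus strand) encodes nucleolin, an RNA-binding protein of early precursor processing. It was at 365 and 383 FPKM in wild-type cells against 631 and 646 FPKM in knockout cells (log2 fold change 0.77, SE 0.07, limma adjusted p = 0.00433). The values of each genotype lay close together and far from the other pair. Gnl3 (chromosome 14, 31012433 to 31019152, minus strand) encodes nucleostemin, a GTP-binding protein of dividing cells. Its values of 37.0 and 38.2 FPKM in wild-type cells against 64.5 and 67.0 FPKM in knockout cells gave a similar log2 fold change of 0.79 (SE 0.08, adjusted p = 0.00434). Npm1, which encodes nucleophosmin, the scaffold of the outer nucleolar compartment, had the highest level of the list at 1243 and 1351 FPKM in wild-type cells against 1746 and 1695 FPKM in knockout cells. Its rise was smaller (0.41, SE 0.09, adjusted p = 0.0240), and it was called in 1 of the 4 fits that left out a library.

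Both large subunits of RNA polymerase I were higher and Polr1c, a small shared subunit, was lower. Counting those of a wider list given below, 3 of 8 tested subunit genes rose, 1 fell and 4 did not pass. That is 37.5% called higher, against 15.4% of all tested genes. Polr1e, from the wider list, rose (log2 fold change 0.41, limma adjusted p = 0.0315), and Polr1d was among those that did not pass (-0.19, adjusted p = 0.360). Polr1a, which encodes the largest subunit, was at 19.6 and 20.6 FPKM in wild-type cells against 33.4 and 32.1 FPKM in knockout cells (log2 fold change 0.68, SE 0.08, limma adjusted p = 0.00710). Polr1b encodes the second large subunit, which completes the catalytic centre, and went from 25.4 and 26.3 to 41.4 and 41.3 FPKM (0.66, SE 0.08, adjusted p = 0.00676). In both genes the knockout libraries lay well clear of the wild-type libraries. Polr1c (ENSMUSG00000067148, chromosome 17, 46243920 to 46248054, minus strand) encodes an assembly subunit that RNA polymerase III also uses. It was at 99.1 and 113 FPKM in wild-type cells against 57.8 and 60.9 FPKM in knockout cells, which is a fold change on the log2 scale of -0.83 (SE 0.09, adjusted p = 0.00639). This was the only one of the 42 genes that fell, and its call held without any single library, with adjusted p up to 0.0485.

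The factors that bring the polymerase to ribosomal DNA did not pass. Ubtf encodes the upstream binding factor that occupies the repeats. It was at 94.5 and 93.4 FPKM against 111 and 111 FPKM (log2 fold change 0.24, SE 0.07, limma adjusted p = 0.0577), so the genotypes did not overlap but the difference was small. Rrn3, the bridge between polymerase and promoter factors, was at 24.0 and 26.5 FPKM against 26.5 and 29.6 FPKM, with overlapping ranges (adjusted p = 0.317). A pair of further nucleolar proteins linked to this step rose. Mybbp1a, which binds MYB and acts in ribosomal RNA synthesis and processing, went from 100.04 and 96.5 to 158 and 145 FPKM (adjusted p = 0.00801). The RNA helicase gene Ddx21 went from 82.3 and 85.8 to 125 and 123 FPKM (adjusted p = 0.00818).

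**Figure D2:**
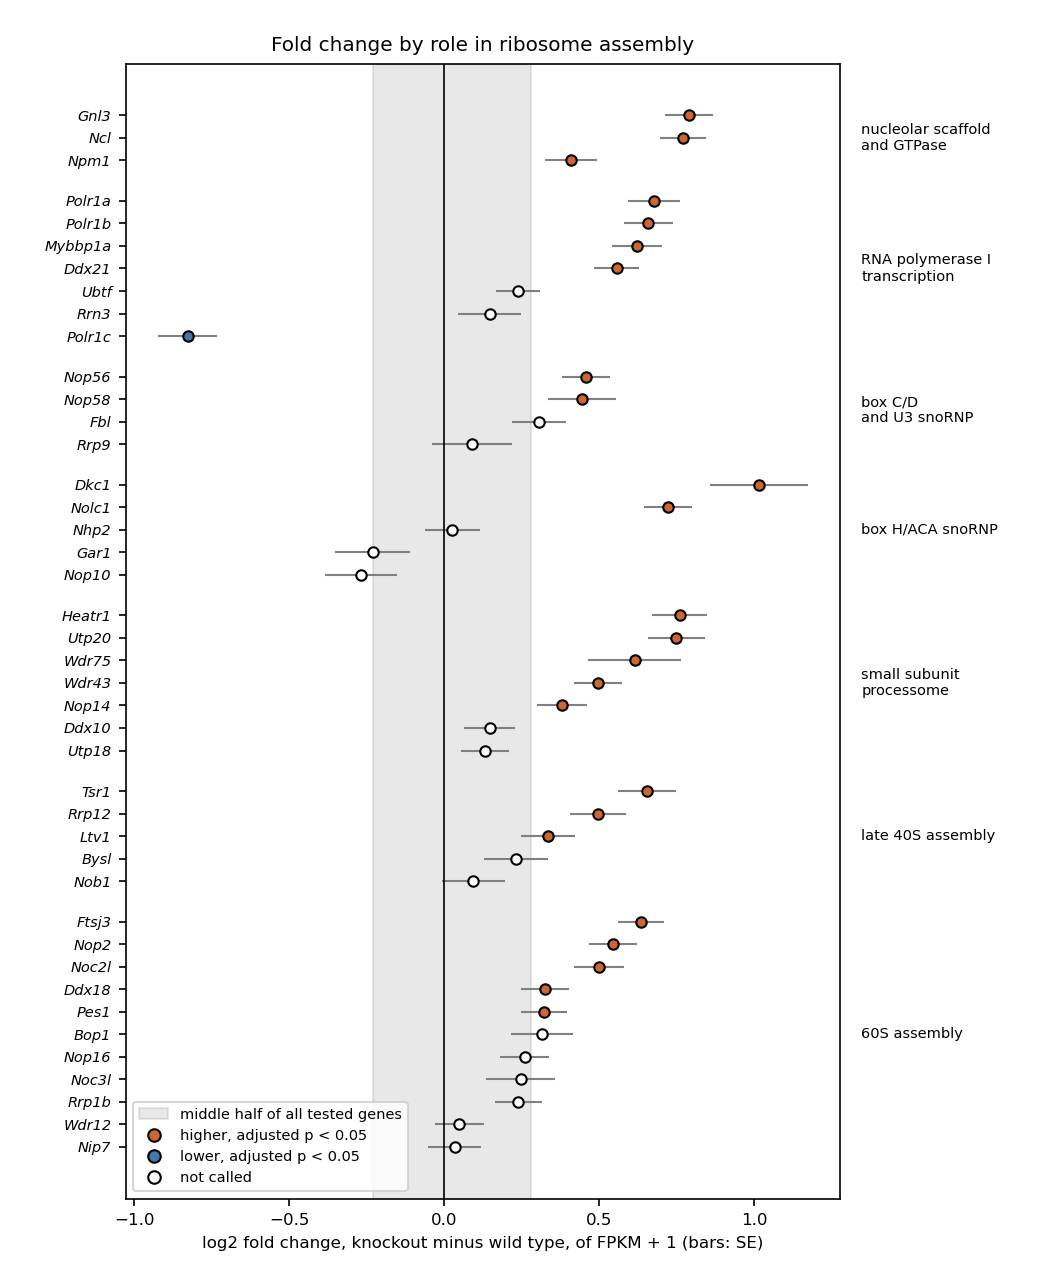
Log2 fold change of each gene, knockout minus wild type on the log2(FPKM + 1) scale, with its standard error as a bar; orange marks genes called higher, blue the gene called lower and white those not called, and the grey band spans the middle 50% of all tested genes. Polr1c stands alone at -0.83, and 3 genes of the box H/ACA group, Nhp2, Gar1 and Nop10, lie inside or just below the band while Dkc1 is at 1.01.

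The core proteins of box C/D particles, which methylate ribosomal RNA, rose in part. Nop56 and Nop58 encode the paired scaffold proteins on which the particle is built. Nop56 was at 304 and 327 FPKM in wild-type cells against 433 and 433 FPKM in knockout cells (log2 fold change 0.46, SE 0.08, limma adjusted p = 0.0140). Nop58 was at 156 and 167 FPKM against 201 and 240.5 FPKM (0.44, SE 0.11, adjusted p = 0.0365), with wider spread in the knockout, and was called in 0 of the 4 fits that left out a library. Fbl, the gene for the methyltransferase fibrillarin, was at 239 and 213 FPKM against 285 and 274 FPKM and missed the threshold (0.31, SE 0.09, adjusted p = 0.0529). Rrp9, a protein of the U3 particle that acts in precursor cleavage, had overlapping ranges, at 94.4 and 74.1 FPKM against 91.0 and 87.2 FPKM (adjusted p = 0.629).

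Box H/ACA particles convert uridine to pseudouridine, and their genes spread from the largest rise of the list to values below 0. Dkc1 (chromosome X, 75095854 to 75109777, plus strand) encodes dyskerin, the pseudouridine synthase, and rose most of the 42. It was at 64.3 and 88.6 FPKM in wild-type cells against 157 and 150.3 FPKM in knockout cells (log2 fold change 1.01, SE 0.16, limma adjusted p = 0.0116). The wild-type libraries stood apart from each other, yet both were far below the knockout. Nolc1, whose product Nopp140 escorts these particles to the nucleolus, rose from 46.4 and 45.0 to 78.1 and 73.9 FPKM (0.72, SE 0.08, adjusted p = 0.00544).

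The 3 small partner proteins that sit beside dyskerin in every such particle did not pass. Nhp2 was at 295 and 261 FPKM against 284 and 281 FPKM (log2 fold change 0.03, SE 0.09, limma adjusted p = 0.847). Gar1 was at 124 and 133 FPKM against 98.1 and 121 FPKM (-0.23, SE 0.12, adjusted p = 0.198), and Nop10 at 78.2 and 95.9 FPKM against 70.1 and 73.4 FPKM (-0.27, SE 0.12, adjusted p = 0.137). In Gar1 and Nop10 both knockout libraries lay below both wild-type libraries. Nop10 was called lower in 1 of the 4 fits that left out a library, the fit without wild-type replicate 1. The difference between Dkc1 and its partners was not tested.

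The small subunit processome assembles on the growing precursor, and 5 of its 7 genes rose while all 7 had both knockout values above both wild-type values. Of all tested genes, 15.4% were called higher and 38.6% had both knockout values above both wild-type values. Heatr1, Wdr43 and Wdr75 encode proteins of the first module to bind, which in human cells and yeast is tied to transcription of the precursor. Heatr1 was at 18.9 and 19.5 FPKM in wild-type cells against 34.8 and 31.8 FPKM in knockout cells (log2 fold change 0.76, SE 0.09, limma adjusted p = 0.00667). Wdr43 was at 47.7 and 48.7 FPKM against 70.1 and 66.7 FPKM (0.50, SE 0.08, adjusted p = 0.0115). Wdr75 was at 63.8 and 84.2 FPKM against 120.4 and 106 FPKM (0.61, SE 0.15, adjusted p = 0.0358), and like Dkc1 had a lower value in wild-type replicate 1 than in replicate 2. The large scaffold gene Utp20, the least abundant of the 42 in wild-type replicate 1, rose from 10.4 and 11.1 to 19.2 and 18.2 FPKM (0.75, SE 0.09, adjusted p = 0.00718). Nop14 rose from 35.4 and 35.3 to 44.8 and 48.0 FPKM (adjusted p = 0.0250). Utp18, at 32.0 and 31.9 against 34.9 and 35.3 FPKM, and the helicase gene Ddx10, at 24.3 and 25.2 against 28.0 and 26.9 FPKM, did not pass (adjusted p = 0.246 and 0.231).

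Factors of late 40S maturation rose in 3 of 5 cases, where 15.4% of all tested genes were called higher. Tsr1, a GTPase-like protein that caps the immature subunit, was at 36.3 and 39.7 FPKM in wild-type cells against 63.2 and 57.6 FPKM in knockout cells (log2 fold change 0.65, SE 0.09, limma adjusted p = 0.00986). Rrp12, an export factor, was at 16.2 and 15.5 FPKM against 23.6 and 21.99 FPKM (0.50, SE 0.09, adjusted p = 0.0167). Ltv1, which in yeast must leave the particle before it can translate, was at 29.0 and 31.2 FPKM against 37.1 and 39.3 FPKM (0.33, SE 0.09, adjusted p = 0.0405). Its call was lost with quantile normalization (adjusted p = 0.0783), median-of-ratios scaling (0.0591) and limma without the trend (0.0622), among others, over a range of 0.0112 to 0.23. Bysl did not pass, at 21.1 and 18.2 against 23.2 and 23.1 FPKM (adjusted p = 0.144). Nob1, the nuclease that makes the final cut of the small subunit RNA, had overlapping ranges of 72.9 and 63.1 FPKM and 69.5 and 75.6 FPKM (adjusted p = 0.519).

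Factors of the large subunit were all above 0 in fold change (53.8% of all tested genes), and 5 of 11 rose (15.4% of all tested genes). Ftsj3, a methyltransferase of the early 60S particle, was at 48.4 and 47.3 FPKM in wild-type cells against 76.3 and 73.4 FPKM in knockout cells (log2 fold change 0.63, SE 0.08, limma adjusted p = 0.00670). Nop2, which methylates a cytosine of the large subunit RNA, went from 58.8 and 55.1 to 83.0 and 83.8 FPKM (0.54, SE 0.08, adjusted p = 0.00993), and Noc2l from 110.4 and 102 to 154 and 147 FPKM (0.50, SE 0.08, adjusted p = 0.0126). Ddx18, a helicase gene, and Pes1 rose by smaller amounts, from 51.0 and 48.8 to 64.2 and 61.4 FPKM (adjusted p = 0.0335) and from 79.7 and 80.8 to 98.2 and 103 FPKM (adjusted p = 0.0306).

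Pes1, Bop1 and Wdr12 encode the 3 proteins of one complex, and of them Pes1 passed; the difference between the 3 was not tested. Bop1 was at 74.7 and 64.5 FPKM against 89.8 and 83.4 FPKM (log2 fold change 0.31, limma adjusted p = 0.0699), and Wdr12 at 26.9 and 26.5 FPKM against 27.8 and 27.4 FPKM (0.05, adjusted p = 0.671). Nop16, Noc3l and Rrp1b had log2 fold changes of 0.24 to 0.26 with both knockout values above both wild-type values and did not pass (adjusted p = 0.0630, 0.155 and 0.0692). Nip7 had overlapping ranges, at 21.6 and 22.02 against 21.7 and 23.0 FPKM (adjusted p = 0.789).

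A wider list of 120 further ribosome assembly genes, of which 119 were analysed, had a median above that of all genes. Of these, 42 rose and 2 fell (35.3% called higher against 15.4% of all tested genes), with a median log2 fold change of 0.26. The 4 with the lowest p were Sdad1, at 22.2 and 22.5 FPKM in wild-type cells against 36.4 and 36.1 FPKM in knockout cells, Rrp15, at 38.1 and 36.5 against 56.8 and 56.8 FPKM, Pwp2, at 15.97 and 16.4 against 25.7 and 25.4 FPKM, and Nat10, at 26.4 and 29.1 against 45.0 and 43.3 FPKM (limma adjusted p = 0.00659, 0.00782, 0.00826 and 0.00870). Nat10 encodes an RNA acetyltransferase of the small subunit RNA. The pair that fell was Nop53, at 429.6 and 294 against 219 and 211 FPKM, and Nsa2, at 103 and 110.0 against 81.5 and 87.2 FPKM (adjusted p = 0.0376 and 0.0350), both factors of the 60S particle. None of the 4 tested TAF1 subunits of the polymerase I promoter factor passed with limma, and at an unadjusted p below 0.05 there were 0 as well. Without knockout replicate 1, 0 genes of the wider list were called higher where 1.58% of all tested genes were, and without knockout replicate 2 there were 2 (1.68%, against 3.16%), so in both fits its share was below that of all genes.

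**Figure D3:**
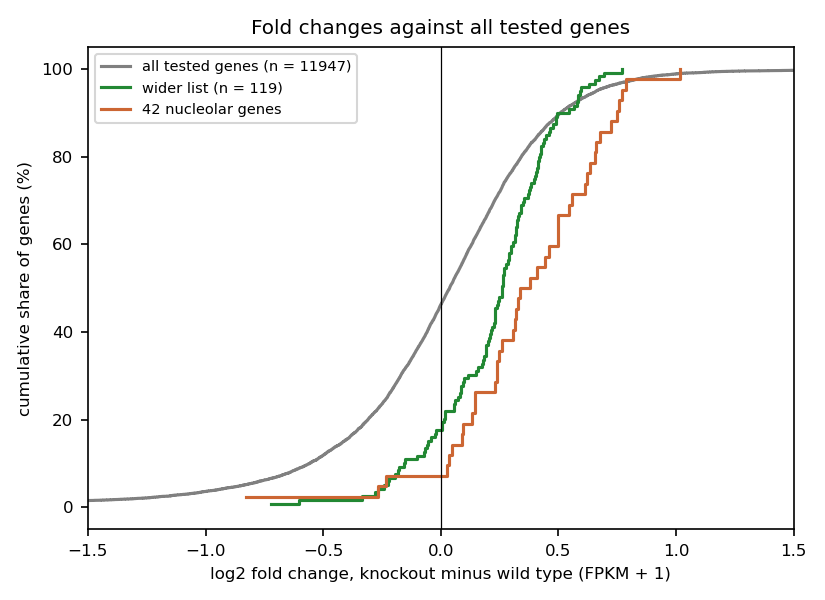
Cumulative share of genes (%) by log2 fold change, knockout minus wild type, for the 42 nucleolar genes (orange), 119 genes of the wider list (green) and all 11947 tested genes (grey), on an axis that leaves out the most extreme genes. The medians are 0.36, 0.26 and 0.04.

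Fold changes varied with transcript length in the whole table, and the nucleolar genes were read against genes of like length. Among tested protein-coding genes the median log2 fold change went from -0.14 for transcripts up to 1500 nt to 0.17 for those over 5000 nt, and the share called higher from 7.61% to 21.7%. Of the nucleolar genes with transcripts up to 1500 nt, 0 of 5 rose and 1 fell, namely Polr1c. The others were Fbl, Gar1, Nhp2 and Nop10. Of all tested protein-coding genes of that length, 452 of 1788 were called lower and 7.61% higher. From 1500 to 2500 nt 6 of 10 rose where 13.4% of all such genes did, from 2500 to 3500 nt 9 of 12 (17.3%), from 3500 to 5000 nt 5 of 10 (18.1%), and over 5000 nt 4 of 5 (21.7%). Across the 42 genes, which share the same 4 libraries, fold change and log2 length had a Pearson r of 0.49 and a Spearman rho of 0.45, given as a description. After the trends with length and GC content were removed in each library, 27 nucleolar genes rose and 1 fell, against 15.7% and 15.6% of all genes. These included all 24 called before, with Bop1, Fbl and Nop16 added.

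**Figure D4:**
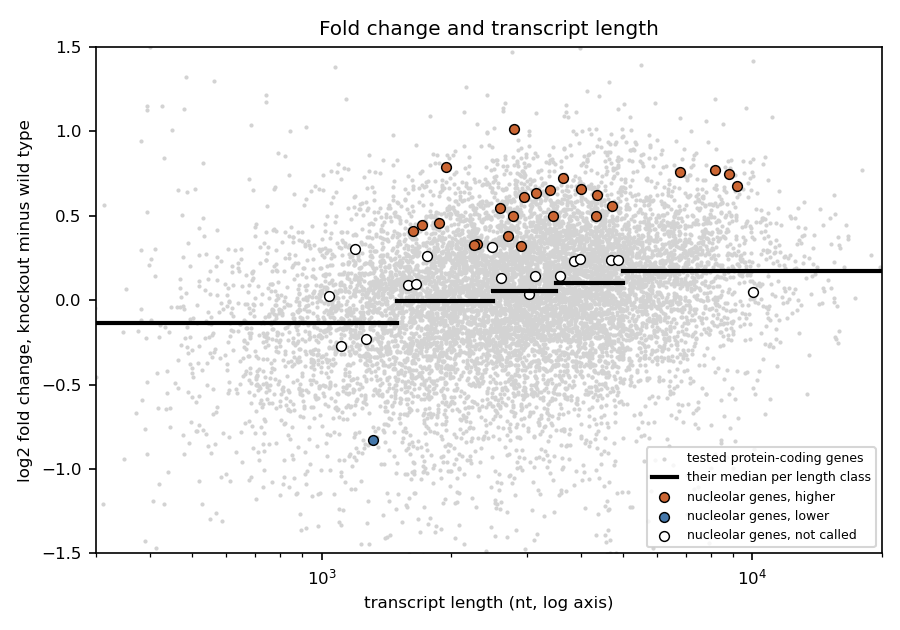
Log2 fold change, knockout minus wild type, against transcript length in nt (log axis) for the 42 nucleolar genes (large symbols) and tested protein-coding genes (grey), on an axis that leaves out the most extreme genes; black bars are the median of all tested protein-coding genes in each of 5 length classes. Within 4 of the 5 classes most nucleolar genes lie above the bar.

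Several nucleolar genes carry snoRNA genes within their bounds on the same strand, a shared feature that the list did not use and that was looked at after the values were known. In GENCODE M21, 7 of the 42 genes hold at least 1 annotated snoRNA, namely Ncl, Gnl3, Nop56, Nop58, Dkc1, Wdr43 and Tsr1. All 7 rose, with a median log2 fold change of 0.66, and 17 of the other 35 rose, with a median of 0.32. Of all 187 tested protein-coding genes that hold a snoRNA, 27.3% were called higher, against 15.5% of those that hold none. Examples of the box C/D type from 3 of these hosts are shown 5′ to 3′ as DNA letters from the GENCODE transcripts on GRCm38, with the C box (TGATGA) and the D box (CTGA) in capitals, the motifs to which the box C/D proteins bind. Snord82 lies in Ncl at chr1:86356261-86356330 on the minus strand, Snord69 in Gnl3 at chr14:31014287-31014366 on the minus strand, and Snord110 in Nop56 at chr2:130275506-130275573 on the plus strand.
Snord82: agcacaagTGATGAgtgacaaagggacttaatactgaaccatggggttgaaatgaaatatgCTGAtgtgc
Snord69: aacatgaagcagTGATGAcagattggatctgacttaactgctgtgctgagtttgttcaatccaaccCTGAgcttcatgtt
Snord110: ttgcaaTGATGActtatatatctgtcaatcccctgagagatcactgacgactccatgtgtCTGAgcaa
The host genes of these 3 rose by 0.77, 0.79 and 0.46 on the log2 scale.

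Promoter sequences were searched for 4 motifs as a planned description without a test. RefSeq windows on GRCm38.p6, from 250 bases before to 50 after the annotated start, were matched for 38 of the 42 genes (47 windows), and Bop1, Fbl, Npm1 and Rrp12 had none. The E-box CACGTG, the letters bound by MYC and related factors, was in 19.1% of the nucleolar windows, in 10.3% of the windows of tested genes and in 7.15% of all windows, on either strand. Of the 9 genes with it, 7 rose, and of the 29 without it 15 rose, where 15.4% of all tested genes were called higher. The ETS motif CCGGAAG was in 31.9% of the nucleolar windows, 19.4% of those of tested genes and 8.86% of all windows. Of its 14 genes 6 rose and 1 fell, and of the 24 without it 16 rose. Of all tested genes 15.4% were called higher and 13.0% lower. The shares called among all tested genes with each motif are not given here. TATAAA was in 4.26% of the nucleolar windows and 6.71% of those of tested genes. The NRF1 motif was in 0 nucleolar windows and 2.29% of those of tested genes. The motifs do not overlap each other in the sequences shown, and a match is a description of letters, not of binding.

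Stretches just before the start are shown for 4 genes, 5′ to 3′ on the strand of the gene, with the E-box and ETS letters on either strand in capitals. Nop2 (chr6:125131783-125131882, plus strand), which rose, and Utp18 (chr11:93885767-93885846, minus strand), which was not called, hold an E-box. Nolc1 (chr19:46075747-46075846, plus strand), which rose, and Gar1 (chr3:129831397-129831496, minus strand), which was not called, hold the ETS letters.
Nop2: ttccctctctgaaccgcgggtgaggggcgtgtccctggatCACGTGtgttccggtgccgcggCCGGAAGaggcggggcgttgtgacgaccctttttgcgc
Utp18: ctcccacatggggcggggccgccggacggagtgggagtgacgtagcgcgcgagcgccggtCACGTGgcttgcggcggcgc
Nolc1: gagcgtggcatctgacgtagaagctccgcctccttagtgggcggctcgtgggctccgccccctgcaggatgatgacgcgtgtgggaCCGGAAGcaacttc
Gar1: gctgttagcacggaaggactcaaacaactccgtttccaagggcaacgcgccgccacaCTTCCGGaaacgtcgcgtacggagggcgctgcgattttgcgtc
The E-box begins at base -60 in Nop2 and at -20 in Utp18, counted from -1 just before the start. Whether the motif letters go with a call was not tested.

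Counting and overlap set the limits of the single values. Steps between low values put the scale at about 19950000 to 23150000 fragments per library, so the nucleolar gene with the fewest fragments, Noc3l, had about 871 in its lowest library and counting error was small for all 42. Where strand is not used in counting, reads of a gene and of one on the opposite strand cannot be told apart, and the strand setting was not given in the sources used here. An opposite-strand gene overlapped 18 of the 42, of which 11 rose, and 13 of the 24 without such an overlap rose. Of all tested genes 15.4% were called higher.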

How the data were processed

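RNA sequencing values of 4 libraries were used, 2 per genotype. Per the submitters' processing notes the authors used HISAT for spliced alignment and Cuffnorm for FPKM, on build GRCm38; no version, annotation or scaling option is given in the sources used here. FPKM values of 21146 genes were deposited, and 21028 were matched to GENCODE M21. Genes reaching 1 FPKM in 2 or more libraries were tested on log2(FPKM + 1) with limma 3.58.1 in R 4.3.3 (moderated linear model, mean-variance trend, two-sided, Benjamini-Hochberg over all 11947 genes, threshold 0.05, prior degrees of freedom 3.39). Transcript length and GC content are those of the longest APPRIS principal transcript, or of the longest transcript where a gene has none. Python 3.11.15 with matplotlib 3.10.9 and pandas 2.3.3 made tables and plots. The fit was tested on simulated data.

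The fragment scale was found from steps in genes with a single transcript, where 92.2% to 93.4% of low values lay within 0.1 of a whole number; scale and fragment length were chosen for the sharpest steps, so part of this is built in. On it, the differences within each genotype exceeded sampling noise (chi-square per degree of freedom 36.3 in wild type and 15.9 in the knockout), so they were not copies.

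Members and lists were chosen with earlier results of these data known. Genes given with full values were the 3 with the lowest and the 1 with the highest p in each role, with 6 fixed by name, and other members by values or ranges. Protein sequence features were planned and not analysed here. Alternatives covered pseudocount, filter, scaling, limma options, thresholds, the replicate block, leaving out each library and, added after seeing the data, removal of a length and GC trend by loess.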

Additional observations from a re-analysis of the deposited data

How the results depend on the processing

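The fold changes of the 42 genes kept their direction under all 17 other settings for the 24 genes that rose and for the 3 below 0. In these genes both knockout values lay on the same side of both wild-type values. Only the scalings, quantile normalization and the removed length and GC trend could therefore have reversed a direction. With no filter on low values 14 nucleolar genes rose (609 higher and 622 lower over all genes, 12 and 0 in the wider list). At a threshold of 0.01 12 rose (373 and 443 over all genes, 6 and 0 in the wider list). With equal totals the wider list had 78 higher and 0 lower and all genes 3475 higher. Without the limma trend 19 nucleolar genes rose and the wider list had 0 lower, against 5 at a threshold of 0.1 and 4 with the length and GC trend removed, which was added after seeing the data. The nucleolar median log2 fold change was 0.33 with a pseudocount of 5, 0.34 with quantile normalization, 0.32 with median-of-ratios scaling and 0.51 with equal totals. Leaving out 1 library gave 2 to 22 nucleolar genes higher and 1 to 2 lower, a median of 0.35 to 0.39, 0 to 33 and 0 to 2 in the wider list, and 189 to 1693 higher and 390 to 1542 lower genes in all; the lone library left in a genotype is taken to vary as the other genotype does. With the replicate number as a block 21 nucleolar genes rose and 1 fell (1453 and 1348 over all genes, 32 and 2 in the wider list); same-numbered libraries did not deviate together (correlation -0.03), so the numbers were not taken as pairs.

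Small fold changes near 0 changed sign, and none of these genes was called. Nip7 was at -0.0124 with quantile normalization, -0.0064 with median-of-ratios scaling and -0.0485 with the trend removed, and ran from -0.0069 (without knockout replicate 2) to 0.075 with 1 library left out. Wdr12 was at -0.0117 with quantile normalization and -0.1053 with the trend removed, and Nhp2 at -0.0166 with median-of-ratios scaling. With 1 library left out, Nhp2 ran from -0.0627 to 0.1139, Nob1 from -0.0085 to 0.1969 and Rrp9 from -0.0832 to 0.2628, each lowest without wild-type replicate 2. A threshold of 0.01 is stricter. The run without a filter tests more genes and also fits the mean-variance trend anew, and the part of each in its lower counts was not tested. For the other settings the cause was not tested either. The same holds for the lower counts without a knockout library than without a wild-type library.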

Other observations

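Genes beside the nucleolar list were looked at after its values were seen. Among long noncoding RNAs that hold snoRNAs, of 10 such genes (Gas5 and the numbered Snhg genes that were tested) 1 rose and 4 fell, where 15.4% of all tested genes were called higher and 13.0% lower, with a median log2 fold change of -0.27. Of the 4 that fell, Snhg15, Snhg8 and Snhg6 have reference transcripts of 675, 776 and 816 nt, and of tested protein-coding genes up to 1500 nt 452 of 1788 were called lower. The other, Snhg20, has one of 2153 nt, and from 1500 to 2500 nt 377 of 2456 such genes were called lower. Snhg20 was at 51.1 and 46.3 FPKM in wild-type cells against 26.5 and 29.9 FPKM in knockout cells (limma adjusted p = 0.00826). The part of length was not tested. Snhg8 was at 155 and 117 FPKM in wild-type cells against 58.4 and 73.1 FPKM in knockout cells (limma adjusted p = 0.0138), Snhg15 at 97.2 and 97.6 against 53.8 and 61.7 FPKM (adjusted p = 0.00715), and Snhg5, which rose, at 47.1 and 47.2 against 66.9 and 68.2 FPKM (adjusted p = 0.01). Gas5 was at 435 and 483 against 444 and 463 FPKM, not called (adjusted p = 0.907). The difference between coding and noncoding hosts was not tested.

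RNA polymerase III shares Polr1c with polymerase I. Of its 10 tested Polr3 subunit genes 1 rose, Polr3b, at 9.98 and 11.2 against 15.1 and 13.9 FPKM (limma adjusted p = 0.0395), and 0 fell, where 15.4% of all tested genes were called higher and 13.0% lower. At an unadjusted p below 0.05 there were 6, with Polr3a, Polr3b, Polr3e and Polr3f above 0 and Polr3gl and Polr3k below. The share of all tested genes at that unadjusted threshold is not given here, so the 6 cannot be read against a background. Both knockout values lay above both wild-type values for 4 of the 10 genes, against 38.6% of all tested genes. They lay below them for 2, against 31.4%. Of 5 subunits common to polymerases I, II and III, Polr2h rose from 28.6 and 31.9 to 41.1 and 41.6 FPKM (adjusted p = 0.0228) and Polr2k fell from 105 and 111 to 67.8 and 80.1 FPKM (adjusted p = 0.0190).

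Yipf3, a Golgi protein gene, starts 25 bases from Polr1c on the opposite strand (GRCm38 chromosome 17, 46248080 to 46252537). It was at 47.7 and 41.8 FPKM in wild-type cells against 32.7 and 35.6 FPKM in knockout cells (log2 fold change -0.38, SE 0.10, limma adjusted p = 0.0436), lower in both knockout libraries like its neighbour.

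A single snoRNA inside a nucleolar gene had a row of its own, Gm24451 within Nop56 (133 nt). It was listed at 0 in 3 libraries and at 8013 FPKM in wild-type replicate 2.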
